A study of Homo sapiens with 6 samples.

Results

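The genes described here encode the proteasome, its regulators and its dedicated assembly chaperones. They were chosen by name alone, as the protein-coding genes whose symbol is PSM, a letter from A to G and a number, and 48 of the 60656 genes in the count table met this rule. RNA was measured in ZR-75-1 cells, an oestrogen receptor-positive human breast cancer line, with all 6 libraries from the parental line. Cells received either DMSO, the solvent control, or abemaciclib at 500 nM, an inhibitor of the kinases CDK4 and CDK6 that keeps the retinoblastoma protein (Rb) in its active form, and both groups were treated for 4 days. Each group had 3 libraries, which the study describes as independent biological replicates of a single cell line. The comparison asks how the level of proteasome mRNA differs between cells grown with the inhibitor and cells that keep cycling.

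The proteasome degrades proteins that carry ubiquitin. Its core particle, the 20S, is a barrel of stacked rings built from alpha subunits (PSMA genes) and beta subunits (PSMB genes), and only PSMB5, PSMB6 and PSMB7 among the constitutive beta subunits carry the proteolytic sites. The 19S regulatory particle caps the barrel, recognizes ubiquitin and unfolds substrates with a ring of ATPases (PSMC genes) and a set of non-ATPase subunits (most PSMD genes). Interferon induces the immunoproteasome subunits PSMB8, PSMB9 and PSMB10, which replace PSMB5, PSMB6 and PSMB7 in newly made cores. PSME genes encode alternative caps, PSMF1 an inhibitor, and PSMG1 to PSMG4 with PSMD5, PSMD9 and PSMD10 chaperones that help the particles to assemble.

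The libraries held between 3317860 and 4013156 counts on genes, and mitochondrial transcripts took 15.6% to 18.3% of them. Levels are CPM, that is counts scaled to library size by the TMM method of edgeR. Reads start near the 3′ end of polyadenylated transcripts, so levels are not divided by gene length. Where no read was counted, the limit was taken as 3 counts, or 0.740 to 0.909 CPM by library, for counting error only. These levels are relative to all counts in a library, so a lower level need not mean less mRNA per cell. Less of a transcript in each cell and fewer cells that express it cannot be told apart either. MKI67, a marker of cycling cells, had 494.0 to 556.7 CPM with DMSO and 3.21 to 7.57 CPM with abemaciclib. All 7 luminal markers (ESR1, GATA3, FOXA1, KRT8, KRT18, KRT19 and EPCAM) were detected in every library. Of 8 markers of leukocytes, fibroblasts and endothelium, 5 (PTPRC, CD3E, COL1A2, PDGFRB and PECAM1) had 0 counts in all libraries and COL1A1 was the highest, with 10.1 to 15.8 CPM.

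These 7 promoter windows are shown because they belong to the genes on which the results turn: PSMC3 and PSMB2, which fell, PSMB5, which rose and has a pair of annotated starts, and PSMB8, PSMB10 and PSME2, which belong to the interferon-inducible arm. Each window runs from 250 bases before to 50 bases after an annotated gene start (RefSeq, GRCh38.p14) and is written 5′ to 3′ along the gene. Capitals mark matches on either strand to the CCAAT box, to the antioxidant response element (TGACNNNGC), which the factor encoded by NFE2L1 is known to read in proteasome promoters, and to the interferon-stimulated response element (GAAA, any 2 bases, GAAA). PSMB8 has a further window, without a match to these, that is not shown. The window of PSMB9, also of the interferon-inducible arm, is not shown either and holds no interferon-stimulated response element. Nor are the windows of PSMC1 and PSMG2, which also fell. They hold no CCAAT, unlike those of PSMC3 and PSMB2, and a window of PSMG2 holds an antioxidant response element.
PSMC3, chr11:47426390-47426689, minus strand: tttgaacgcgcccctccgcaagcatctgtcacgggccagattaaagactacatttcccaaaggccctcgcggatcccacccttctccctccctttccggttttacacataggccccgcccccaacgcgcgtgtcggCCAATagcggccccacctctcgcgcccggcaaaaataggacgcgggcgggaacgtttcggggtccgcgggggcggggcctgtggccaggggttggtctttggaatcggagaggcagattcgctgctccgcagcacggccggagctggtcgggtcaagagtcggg
PSMB2, chr1:35641477-35641776, minus strand: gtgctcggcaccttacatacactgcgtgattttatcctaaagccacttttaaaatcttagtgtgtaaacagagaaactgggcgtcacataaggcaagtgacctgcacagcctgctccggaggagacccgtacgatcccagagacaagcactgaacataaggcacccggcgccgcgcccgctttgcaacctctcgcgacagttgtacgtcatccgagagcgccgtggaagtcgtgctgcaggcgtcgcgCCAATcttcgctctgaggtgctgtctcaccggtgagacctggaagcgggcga
PSMB5, chr14:23034851-23035150, minus strand: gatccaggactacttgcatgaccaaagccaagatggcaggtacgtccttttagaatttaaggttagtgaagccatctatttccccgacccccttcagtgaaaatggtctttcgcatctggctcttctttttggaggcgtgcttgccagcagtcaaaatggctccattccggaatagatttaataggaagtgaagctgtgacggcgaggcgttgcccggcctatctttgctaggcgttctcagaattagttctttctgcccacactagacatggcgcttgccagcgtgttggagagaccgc
PSMB5, chr14:23035171-23035470, minus strand: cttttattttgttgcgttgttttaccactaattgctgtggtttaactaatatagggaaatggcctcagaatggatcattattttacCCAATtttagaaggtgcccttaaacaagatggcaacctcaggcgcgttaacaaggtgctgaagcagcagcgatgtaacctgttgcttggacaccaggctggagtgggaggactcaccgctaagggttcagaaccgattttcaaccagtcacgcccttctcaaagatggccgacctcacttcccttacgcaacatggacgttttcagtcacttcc
PSMB8, chr6:32843998-32844297, minus strand: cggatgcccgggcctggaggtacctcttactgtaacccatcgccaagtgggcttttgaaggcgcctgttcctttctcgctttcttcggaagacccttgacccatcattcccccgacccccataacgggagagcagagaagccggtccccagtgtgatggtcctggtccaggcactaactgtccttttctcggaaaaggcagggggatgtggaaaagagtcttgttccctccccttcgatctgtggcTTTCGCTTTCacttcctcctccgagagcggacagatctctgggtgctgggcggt
PSMB10, chr16:67936801-67937100, minus strand: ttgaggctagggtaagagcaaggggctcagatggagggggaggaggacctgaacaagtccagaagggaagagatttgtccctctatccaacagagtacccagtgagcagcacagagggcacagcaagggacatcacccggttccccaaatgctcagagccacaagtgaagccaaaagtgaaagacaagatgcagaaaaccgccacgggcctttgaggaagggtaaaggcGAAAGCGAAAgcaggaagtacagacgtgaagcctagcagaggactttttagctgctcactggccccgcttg
PSME2, chr14:24146561-24146860, minus strand: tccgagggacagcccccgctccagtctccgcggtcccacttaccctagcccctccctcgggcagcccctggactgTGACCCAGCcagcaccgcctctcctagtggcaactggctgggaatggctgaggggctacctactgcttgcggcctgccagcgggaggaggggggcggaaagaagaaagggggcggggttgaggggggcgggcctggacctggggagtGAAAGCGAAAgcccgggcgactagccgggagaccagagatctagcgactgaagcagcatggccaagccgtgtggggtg

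Promoter windows were found for 42 of the 48 genes, 51 windows in all, and none was found for PSMA7, PSMB1, PSMB6, PSMB7, PSMD4 and PSMG3. CCAAT was present in 20 of the 51 windows (39.2%) and in 34.6% of all 35116 annotated windows of this length. TGACNNNGC was present in 15 of the 51 (29.4%) and in 13.3% of all windows. The windows of PSMC3, PSMB2 and PSMB5 hold no match to it, and that of PSME2 holds one. Of the 10 windows of genes that fell, 2 hold a match to it, in PSMA4 and PSMG2, which each have more than 1 window. CCAAT was in 4 of these 10 and the interferon-stimulated response element in 1. PSMA7, PSMB1, PSMB6, PSMB7 and PSMD4 also fell but have no window, so these counts leave them out. The interferon-stimulated response element was present in 7 of the 51 windows (13.7%), against 3.57% of all windows, and in 5 of these, of PSMB8, PSMB10, PSMG4, PSME1 and PSME2, the letters were GAAAGCGAAA, a run found in 35 of the 35116 windows (0.0997%). The GC box GGGCGG was in 35 of the 51 windows (68.6%) and in 45% of all windows. Of motifs tied to the cell cycle, each of 2 forms of the E2F site was in 2 of the 51 windows (3.92%), of PSMA1 and PSMB3 for one form and of PSMD5 and PSMD9 for the other, against 1.63% and 0.652% of all windows. The cell cycle element TTTGAA was in 7 windows (13.7%), against 15.2%, and 2 of the 7 are overlapping windows of PSMA6 that share the site. The gamma-activated site TTCNNNGAA was in 8 windows (15.7%) against 7.66%, and the TATA box TATAAA in 5 (9.8%) against 11.5%. The nuclear respiratory factor site was in 2 windows (3.92%) against 1.24%, both of PSMA4, and these overlap and share the site. Overlapping windows of the same gene were counted separately for every motif. The run GAAAGCGAAA was looked at after the matches were seen, and a match of letters is not a measure of binding.

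With abemaciclib, 12 proteasome genes fell and 1 rose, PSMB5. The test was edgeR's quasi-likelihood test with P adjusted over 10863 genes and a threshold of 0.05, and 43 of the 48 genes had enough counts to enter it. Lower genes were thus 27.9% of those tested, where 13.3% of all genes tested were lower, and higher genes were 2.33%, where the background was 12.5%. Among the 5315 genes whose mean level lay between 21.5 and 252.0 CPM (a range that leaves out the extremes of the tested proteasome genes) 15% were lower and 16.7% higher. Of the 43 genes, 32 had a log2 fold change below 0, against 50.2% of all genes tested. The median over the 43 was −0.23, and that of all genes tested was −0.00. In 19 of the 43, every abemaciclib library lay below every DMSO library, where the background was 20.1% of genes, and in 5 every abemaciclib library lay above, where it was 19.1%. The differences were modest in size, from −0.86 for PSMC3 to 0.63 for PSMG4 on the log2 scale.

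**Figure D1:**
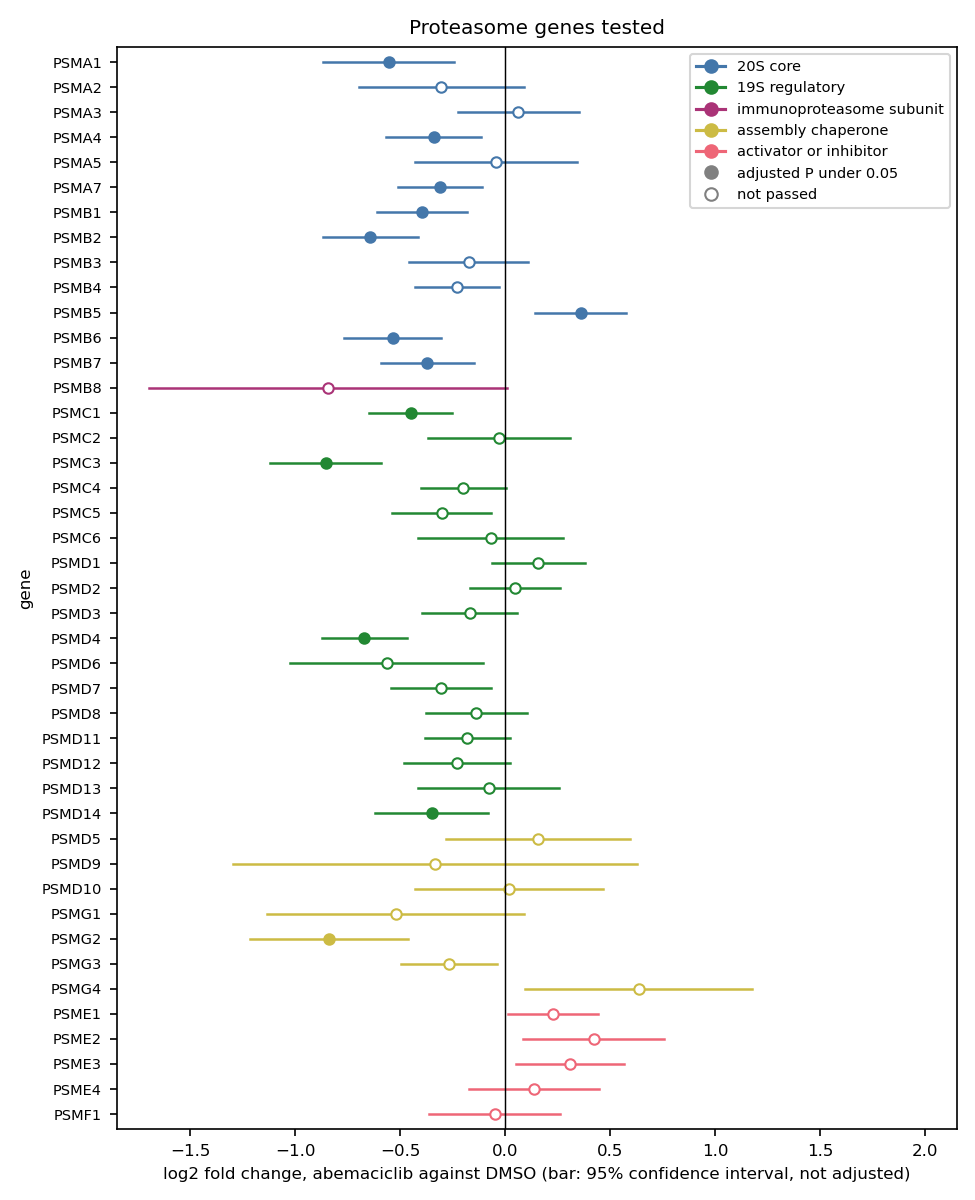
Log2 fold change (x axis) of each of the 43 tested proteasome genes (y axis), with its 95% confidence interval as a bar and filled points for an adjusted P under 0.05. Most 20S and 19S genes lie left of 0, PSMB5 stands alone as a filled point on the right at 0.36, and the 4 PSME genes lie right of 0 with open points.

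Summed over the 48 genes, the level was 5711 ± 112 CPM in the DMSO libraries and 4877 ± 105 CPM in the abemaciclib libraries (mean ± SD, n = 3 each), or 85.4% of the DMSO mean. The 14 constitutive 20S genes summed to 1972, 1991 and 1950 CPM in the DMSO libraries and to 1640, 1535 and 1674 CPM in the abemaciclib libraries, 82.0% of the DMSO mean. For the 17 subunits of the 19S particle the sums were 2897, 3016 and 3116 CPM with DMSO and 2591, 2539 and 2392 CPM with abemaciclib, 83.3% of the DMSO mean. In both particles the abemaciclib libraries lay below the DMSO libraries, and the difference between the particles was not tested. The 5 genes for activators and the inhibitor summed to 424.6, 439.3 and 460.4 CPM with DMSO and to 517.0, 515.1 and 510.1 CPM with abemaciclib, 116.5% of the DMSO mean. The 7 assembly chaperones summed to 84.0% of the DMSO mean, and the 3 immunoproteasome genes to 48.1%, from a mean of only 11.3 CPM with DMSO. No test was made of these sums, since the genes were chosen as a group.

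**Figure D2:**
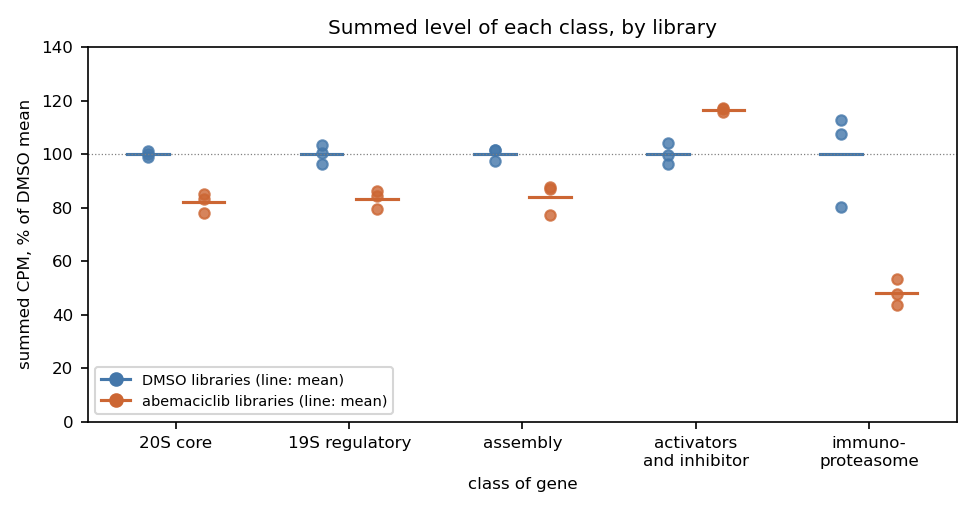
Summed CPM of each class of proteasome gene (x axis) in each library, as a percentage of the mean of the 3 DMSO libraries (y axis, starting at 0), with lines at the group means. The abemaciclib libraries lie at 77.9% to 85.0% for the 20S core and 79.5% to 86.1% for the 19S particle, at 115.6% to 117.1% for activators and inhibitor and at 43.5% to 53.3% for the immunoproteasome genes.

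In the core particle, 7 of the 13 tested genes were lower and 1 was higher, where 13.3% of all genes tested were lower and 12.5% higher. The median of their log2 fold changes was −0.31. PSMB2, a non-catalytic beta subunit (chromosome 1, 35599541 to 35641526, GRCh38), had 161.3, 168.7 and 163.6 CPM in the DMSO libraries and 114.7, 101.6 and 100.2 CPM with abemaciclib. The groups were well apart (log2 fold change −0.64 ± 0.11, where ± is the standard error for all log2 values, adjusted P = 4.9e-05). PSMB1, another non-catalytic beta subunit, had 275.8, 248.9 and 223.2 CPM with DMSO and 180.0, 187.3 and 200.5 CPM with abemaciclib, without overlap (log2 fold change −0.40, adjusted P = 0.00505). Leaving out DMSO replicate 1 ended this call (−0.32). The other structural beta subunits PSMB3 and PSMB4 had log2 fold changes of −0.17 and −0.23 and did not pass (adjusted P = 0.393 and 0.0873 from edgeR).

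The alpha ring, which forms the gate of the barrel, had 3 of 6 tested genes lower, against 13.3% of all genes tested. PSMA1 had 62.7, 71.0 and 57.9 CPM with DMSO and 36.9, 46.4 and 46.7 CPM with abemaciclib (log2 fold change −0.55, adjusted P = 0.00712), and without DMSO replicate 2 its value was −0.47 and the call was lost. For PSMA4 the levels were 131.4, 128.9 and 134.2 CPM with DMSO and 99.5, 100.9 and 110.8 CPM with abemaciclib (log2 fold change −0.34, adjusted P = 0.0227). Both genes had every abemaciclib library below every DMSO library. The call of PSMA4 was lost in 5 of the 6 fits that left out 1 library (all but that without abemaciclib replicate 3), with values from −0.36 to −0.31, and with a replicate block (−0.34). PSMA7, the most abundant alpha subunit, had 387.8, 407.8 and 448.3 CPM with DMSO and 347.3, 301.2 and 355.0 CPM with abemaciclib, also apart (log2 fold change −0.31, adjusted P = 0.019), and this call was lost without DMSO replicate 2 (−0.32), DMSO replicate 3 (−0.25) or abemaciclib replicate 2 (−0.24). PSMA2, PSMA3 and PSMA5 had log2 fold changes from −0.30 to 0.06 and did not pass.

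PSMA6 could not be tested. It had 5 to 9 counts in the DMSO libraries and 1 to 6 with abemaciclib, while the other 6 alpha subunits had mean levels of 32.3 to 414.6 CPM with DMSO. A gene on the same strand overlaps its 3′ end in the annotation used here and had 0 counts in every library. PSMA1 and PSMA2 are also overlapped at the 3′ end by a gene on the same strand, each with 0 counts in every library. The part of these overlaps in the levels was not tested.

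Among the catalytic subunits, PSMB5 parted from the other two. PSMB6 (chromosome 17, 4796144 to 4798502), the caspase-like subunit, had 150.5, 148.8 and 164.5 CPM with DMSO and 118.0, 104.9 and 97.5 CPM with abemaciclib (log2 fold change −0.53 ± 0.11, adjusted P = 0.000637). PSMB7, the trypsin-like subunit, had 219.9, 208.2 and 201.7 CPM with DMSO and 162.5, 142.8 and 182.1 CPM with abemaciclib (log2 fold change −0.37, adjusted P = 0.0113). Leaving out DMSO replicate 1 (−0.34) or abemaciclib replicate 2 (−0.28) ended the call. PSMB5 (chromosome 14, 23016543 to 23035230), the chymotrypsin-like subunit and the main target of bortezomib, had 144.7, 135.8 and 126.9 CPM with DMSO and 178.8, 172.5 and 171.6 CPM with abemaciclib. All 3 abemaciclib libraries were above all DMSO libraries (log2 fold change 0.36 ± 0.11, adjusted P = 0.0121). The call of PSMB5 was lost without DMSO replicate 2 (0.36, adjusted P = 0.0534) or without DMSO replicate 3 (0.31, adjusted P = 0.0654), while the direction held. Of the summed CPM of PSMB5, PSMB6 and PSMB7, PSMB5 made up 27.1 ± 1.2% with DMSO and 39.3 ± 1.6% with abemaciclib (SD, n = 3 in each group), and PSMB6 went from 30.9 ± 2.2% to 24.1 ± 2.2%. These shares were looked at after the values were seen and carry no test.

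**Figure D3:**
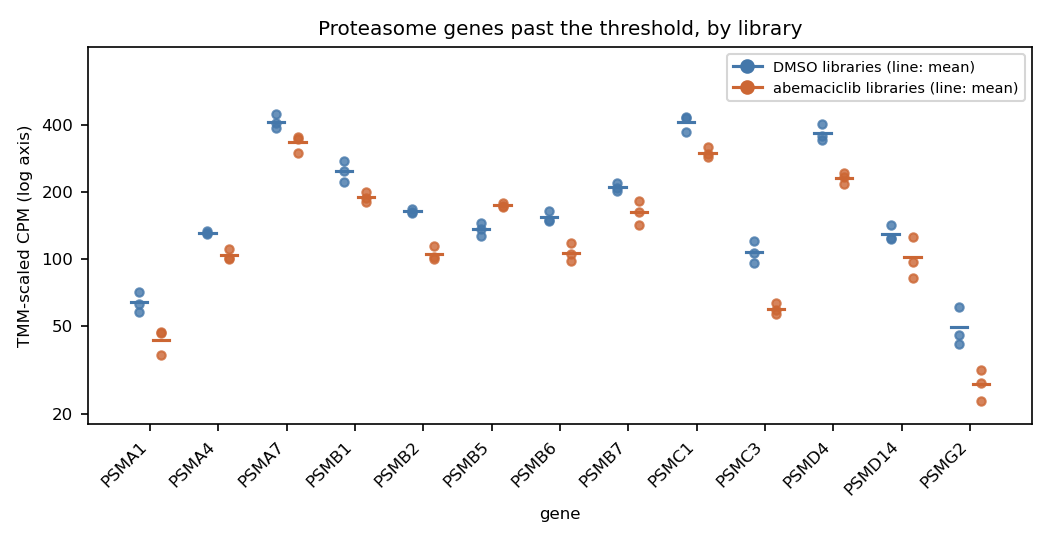
TMM-scaled CPM on a log axis (y) of the 13 proteasome genes past the threshold (x), with a point for each library and a line at each group mean. PSMB5 has its abemaciclib libraries above, PSMD14 has groups that overlap, and the other 11 have every abemaciclib library below every DMSO library.

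Immunoproteasome transcripts were scarce, as counts show best. PSMB8 had 30, 26 and 20 counts in the DMSO libraries and 13, 15 and 18 with abemaciclib, or 7.49 ± 1.34 and 4.17 ± 0.62 CPM (SD, n = 3 in each group). Each abemaciclib library was below each DMSO library, but the log2 fold change of −0.84 had a 95% confidence interval from −1.70 to 0.01 and did not pass (adjusted P = 0.143). PSMB9 had 10, 13 and 9 counts with DMSO and 5, 5 and 2 with abemaciclib, too few for the test. PSMB10 had 2, 4 and 1 counts with DMSO and 2, 0 and 0 with abemaciclib, and a gene on the same strand overlaps its 3′ end. The levels of PSMB9 and PSMB10 with abemaciclib lay near the limit that a count of 0 allows.

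Set against the constitutive subunit that it replaces, PSMB8 made up 5.20 ± 0.58% of the pair with PSMB5 in the DMSO libraries and 2.34 ± 0.37% in the abemaciclib libraries (SD, n = 3 in each group). The groups did not overlap, at 4.56% to 5.67% and 2.10% to 2.76%. PSMB9 made up 2.02 ± 0.46% of the pair with PSMB6 with DMSO and 0.993 ± 0.386% with abemaciclib, again without overlap. PSMB10 made up 0.263%, 0.567% and 0.150% of the pair with PSMB7 in the DMSO libraries and 0.371% in abemaciclib replicate 1. The other 2 abemaciclib libraries had no PSMB10 count, which allows shares of up to 0.515% and 0.443%, so no difference was detectable at this depth. The exact permutation test, two-sided, gave P = 0.1 for each of the first pairs, the smallest that 3 libraries against 3 allow, and P = 0.3 for PSMB10 with its counts of 0 taken as 0 (0.15, 0.15 and 0.3 after adjustment over 3 pairs). The share of PSMB8 rests on both of its genes, since PSMB5 was itself higher with abemaciclib. PSMA8 and PSMB11, core subunits of testis and thymus, had 0 counts in all 6 libraries.

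**Figure D4:**
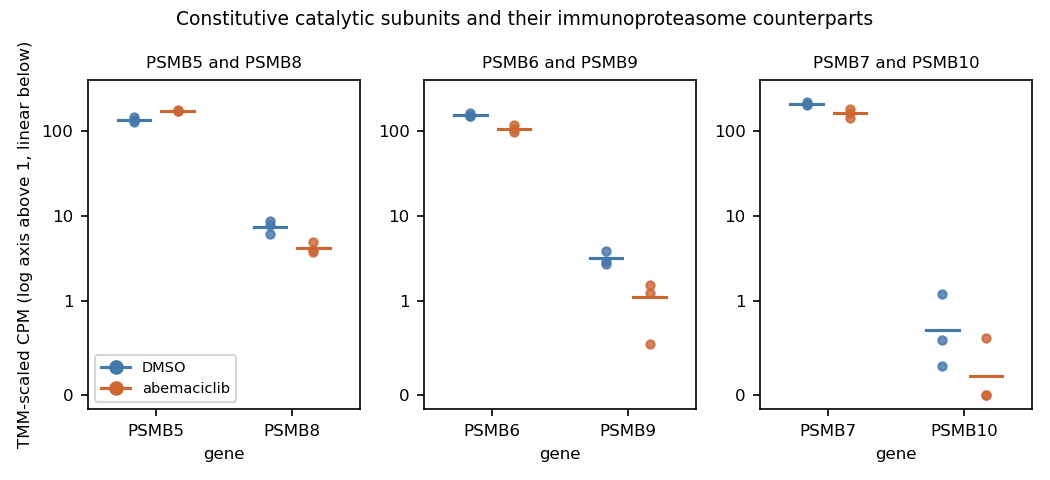
TMM-scaled CPM (y axis, logarithmic above 1 and linear below) of each constitutive catalytic subunit and its immunoproteasome counterpart (x axis), with a point for each library and a line at each group mean. The immunoproteasome subunits lie far below their counterparts in both groups, from 0 to 8.70 CPM against 97.5 to 219.9 CPM.

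In the 19S particle, 4 of 17 tested subunits were lower and 0 were higher (0 higher also at an unadjusted P under 0.05 and with DESeq2). Lower genes were 23.5% here and 53.8% in the core, and the difference between the classes was not tested. Over all genes tested, 13.3% were lower and 12.5% higher. PSMC3 (chromosome 11, 47418769 to 47426473), an ATPase of the ring that threads substrates into the barrel, had 120.1, 106.9 and 95.7 CPM with DMSO and 63.2, 56.5 and 58.9 CPM with abemaciclib. The groups were far apart (log2 fold change −0.86 ± 0.13, adjusted P = 8.8e-06). PSMC1, another ATPase and an abundant one, had 371.5, 436.1 and 429.5 CPM with DMSO and 296.2, 320.2 and 288.0 CPM with abemaciclib (log2 fold change −0.45, adjusted P = 0.000794). Its 3′ end overlaps NRDE2 on the opposite strand, and 13 annotated pseudogenes together held 36 counts in an average DMSO library, where PSMC1 itself held 1389. The other 4 ATPases had log2 fold changes from −0.30 for PSMC5 to −0.03 for PSMC2, and did not pass. PSMC5 was nearest to the threshold (adjusted P = 0.0528) and passed without abemaciclib replicate 3 (−0.36), with total counts as the only scaling (−0.32) and when genes under 10 counts in any library were left out (−0.31).

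Of the non-ATPase subunits, PSMD4 (chromosome 1, 151254709 to 151267479), one of the ubiquitin receptors, had 342.0, 357.9 and 406.2 CPM with DMSO and 216.9, 242.8 and 234.5 CPM with abemaciclib. No abemaciclib library came near the DMSO range (log2 fold change −0.67 ± 0.10, adjusted P = 6.6e-06). PSMD14, the deubiquitinase of the lid, had 122.4, 141.7 and 123.9 CPM with DMSO and 125.9, 97.0 and 82.1 CPM with abemaciclib. These groups overlapped, and the log2 fold change of −0.35 only just passed (adjusted P = 0.0499). The call was lost with DESeq2 (adjusted P = 0.12), with its size factors in edgeR (0.0567), with a replicate block (0.0665) and in 5 of the 6 fits without 1 library (all but that without abemaciclib replicate 1), with values from −0.39 to −0.22.

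Several of the large scaffold and lid subunits did not pass. The scaffolds PSMD1 and PSMD2 had log2 fold changes of 0.16 (95% confidence interval −0.07 to 0.38) and 0.04 (−0.17 to 0.26). PSMD3, the most abundant of all the genes with 427.0 ± 40.8 CPM with DMSO (SD, n = 3), had −0.17 (−0.40 to 0.06), and abemaciclib replicate 3, at 304.0 CPM, lay below the other 2 libraries of its group, at 418.4 and 416.2 CPM. PSMD6 had −0.56 and PSMD7 −0.31, with adjusted P of 0.0635 and 0.052, and each passed in some settings. PSMD6 passed without DMSO replicate 2 (−0.73), and PSMD7 passed without abemaciclib replicate 2 (−0.39), with total counts only (−0.32) and when genes under 10 counts in any library were left out (−0.31). The 3′ end of PSMD7 is overlapped by a gene on the opposite strand, which had 0, 2 and 1 counts with DMSO and 10, 1 and 4 with abemaciclib. PSMD8, PSMD11, PSMD12 and PSMD13 had values from −0.23 to −0.08, none past the threshold.

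Among the 7 assembly chaperones 1 was lower and 0 were higher (2 lower and 1 higher at an unadjusted P under 0.05, and 0 higher with DESeq2), and 1 in 7 lower is near the background of 13.3%. PSMG2, which works as a pair with PSMG1 in building the alpha ring, had 45.5, 60.6 and 41.5 CPM with DMSO and 22.99, 27.6 and 31.6 CPM with abemaciclib (log2 fold change −0.84 ± 0.18, adjusted P = 0.000932). PSMG1 had 14.4 ± 2.33 and 10.0 ± 3.41 CPM (SD, n = 3 in each group), and its log2 fold change of −0.52 had an interval from −1.14 to 0.09. The value of PSMG3 was −0.27 (adjusted P = 0.0781), and it passed without abemaciclib replicate 1 (−0.34). PSMG4, the known partner of PSMG3, had 9.86, 10.1 and 13.3 CPM with DMSO and 17.2, 15.3 and 19.2 CPM with abemaciclib. Its groups did not overlap, but the log2 fold change of 0.63 did not pass (adjusted P = 0.0764). The 19S chaperones PSMD5, PSMD9 and PSMD10 had values of 0.15, −0.33 and 0.02, with intervals that include 0.

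None of the alternative caps passed the threshold (0 of 5 activator and inhibitor genes higher with edgeR, 0 with DESeq2, and 3 higher at an unadjusted P under 0.05). PSME1 and PSME2, which form the interferon-inducible cap of the proteasome, had log2 fold changes of 0.23 (adjusted P = 0.119) and 0.42 (adjusted P = 0.0588). PSME1 had 203.6, 222.5 and 250.5 CPM with DMSO and 292.9, 248.9 and 249.9 CPM with abemaciclib, so its groups overlapped. PSME2 had 36.8, 38.0 and 33.9 CPM with DMSO and 40.8, 52.1 and 52.4 CPM with abemaciclib, without overlap. PSME1 passed without abemaciclib replicate 3 (0.26) and PSME2 without abemaciclib replicate 1 (0.53). The 3′ end of PSME1 overlaps EMC9 on the opposite strand, that of PSME2 holds MIR7703, and 6 annotated pseudogenes of PSME2 held means of 66.7 counts per DMSO library and 87.7 per abemaciclib library, where the gene held 122.3 and 180.0.

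PSME3, the nuclear cap, had 89.3, 78.4 and 74.5 CPM with DMSO and 92.6, 110.0 and 96.7 CPM with abemaciclib, a log2 fold change of 0.31 (adjusted P = 0.0726). PSME4, a cap of a separate family, had 0.14 and the inhibitor gene PSMF1 −0.05, with intervals from −0.17 to 0.44 and from −0.36 to 0.26. Of 10 interferon-regulated antigen presentation genes and their regulators, 8 were tested, with 1 higher, 0 lower (0 lower at an unadjusted P under 0.05 and with DESeq2) and a median of 0.22. With 12.5% of all genes tested higher, a count of 1 in 8 is at the background. The higher gene was TAPBP, the peptide-loading chaperone tapasin, with 106.4, 112.3 and 94.8 CPM with DMSO and 141.0, 155.4 and 158.3 CPM with abemaciclib (log2 fold change 0.54, adjusted P = 0.000616). TAPBP is overlapped at its 3′ end by a gene on the opposite strand. TAP1 and TAP2, the peptide transporter genes beside PSMB8 and PSMB9, had log2 fold changes of −0.14 and −0.06.

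Of 11 genes for proteasome subunits, assembly factors and bound proteins outside the PSM names, 1 was higher and 1 lower, with a median of 0.05. Neither count is above the background of 12.5% higher and 13.3% lower. ADRM1, a ubiquitin receptor, had 135.5, 131.0 and 144.8 CPM with DMSO and 115.6, 101.6 and 98.4 CPM with abemaciclib (log2 fold change −0.38, adjusted P = 0.0124). UCHL5, the deubiquitinase that ADRM1 recruits, had 94.3, 85.8 and 84.2 CPM with DMSO and 108.6, 114.2 and 123.5 CPM with abemaciclib (log2 fold change 0.39, adjusted P = 0.0143). Neither pair of groups overlapped, in opposite directions. ADRM1 lost its call when DMSO replicate 3 (−0.34) or abemaciclib replicate 2 (−0.36) was left out, and that of UCHL5 without DMSO replicate 2 (0.37) or without DMSO replicate 3 (0.36). The 3′ end of ADRM1 overlaps LAMA5 on the opposite strand. POMP, the maturation factor of the core particle, had a log2 fold change of −0.15 and did not pass.

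Of 10 genes known to act on the transcription of proteasome genes or on the processing of their regulators, 9 were tested, and 1 was higher and 0 lower (none lower with DESeq2 either, and 0 lower with unadjusted P under 0.05), and 1 in 9 is near the background of 12.5% higher. Their median log2 value was 0.01. NFE2L1, whose product drives proteasome genes when proteasome activity is short, had 56.3, 67.4 and 59.4 CPM with DMSO and 91.7, 78.7 and 70.0 CPM with abemaciclib, a log2 fold change of 0.39 (adjusted P = 0.0378). Its groups did not overlap, but the call was lost with DESeq2 (adjusted P = 0.0786), with total counts only (0.0514), with a replicate block (0.0695) and without DMSO replicate 1 (log2 fold change 0.33), DMSO replicate 3 (0.37), abemaciclib replicate 1 (0.29) or abemaciclib replicate 2 (0.41). DDI2 and NGLY1, which process the NFE2L1 protein, had values of 0.28 and 0.21 and did not pass, as did NFYA, NFYB and NFYC, the subunits that bind CCAAT, with values from −0.40 to −0.12.

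Of the 13 calls among proteasome genes, 6 held in all alternatives that kept the gene: PSMB2, PSMB6, PSMC1, PSMC3, PSMD4 and PSMG2. All of them were lower with abemaciclib. PSMC1 was itself among the genes dropped where those with overlapped 3′ ends were left out.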

How the data were processed

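RNA of parental ZR-75-1 cells was measured in 6 libraries, 3 with DMSO and 3 with 500 nM abemaciclib for 4 days, grouped by the titles of the samples. Reads of these 3′ mRNA libraries, single-end, were trimmed by the authors (BBDuk), aligned (STAR 2.7.5b, hg38) and counted per gene with featureCounts 2.0.1 on a GENCODE annotation (tools also per the submitters' processing notes). The deposited values are these raw counts, without normalization. Whether counting used the strand of the reads is not given in the sources used here. Totals were 3317860 to 4013156 counts per library, and no molecular identifiers are described.

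Symbols were matched by identifier for 60401 of 60656 genes, and gene types, positions and overlaps in the last 500 exonic bases were taken from a later GENCODE release on GRCh38. Abemaciclib was compared with DMSO with edgeR 4.0.16 under R 4.3.3 (filterByExpr, TMM, glmQLFit, glmQLFTest, no covariate, Benjamini–Hochberg adjustment over 10863 genes, threshold 0.05). Standard errors were derived from log2 fold changes and their F statistics. The biological coefficient of variation was 13.2%. Every proteasome gene is accounted for. Values are given for those past the threshold, for the catalytic subunits and their counterparts, for PSME1 to PSME4 and PSMF1 and for genes too low to test, and other genes named were chosen after their values were seen. Genes of the related lists were named where they passed. The members and lists were chosen with earlier results of these data known. Part of a list of ubiquitin pathway genes is not reported here. Alternatives were DESeq2 1.42.0, edgeR with DESeq2's size factors, library totals in place of TMM, no filter, a floor of 10 counts per library, omission of each library, a replicate block, pseudogene counts added to a gene, and genes with overlapped 3′ ends left out. The test was checked on simulated counts, drawn with the same biological coefficient of variation for every gene. It recovered 19.7% of log2 changes of 0.5 (13 of 66), 87.7% of changes of 1 and 100% of changes of 2. Only 66, 65 and 62 of the 10831 genes tested there carried changes of these sizes, while 2796 of 10863 genes passed in the data. The adjustment was thus stricter in the simulation, so these percentages do not give the recovery in the data. A gene that did not pass may still have a change of about 0.5 where its confidence interval includes that size. The interval given for PSMG1 includes it for a fall, while those given for PSMD1 and PSMD2 leave it out in either direction.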

Additional observations from a re-analysis of the deposited data

How the results depend on the processing

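Of 308 recomputed summary values, 279 stayed within 1.5 times for a count, or within the spread between replicates for a median or share, and 29 moved. The numbers of proteasome genes lower and higher, 12 and 1, ranged over 8 to 12 and 0 to 2 when each of the 6 libraries was left out. In these fits the core particle had 4 to 7 genes lower and 0 to 1 higher, and its median log2 fold change was −0.39 to −0.24. The median of the assembly chaperones was −0.28 to −0.059 and that of activators and inhibitor 0.15 to 0.26, or 0.14 with genes overlapped at the 3′ end left out. Among the partner proteins 0 to 1 were higher and 0 to 2 lower, and among the transcriptional regulators 0 to 1 were higher. The count of regulators higher was 0 with DESeq2, with total counts only and with a replicate block.

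Same-numbered libraries did not deviate together (correlations of −0.14, 0.00 and −0.21), and the largest correlation was that of DMSO replicate 1 with abemaciclib replicate 3 (0.24). These deviations are taken about means of only 3 libraries, so they cannot decide whether the replicate numbers pair the samples. With the replicate block 10 proteasome genes were lower and 1 higher. For single genes, 44 of 616 values crossed the threshold and 0 of these changed direction. Low counts limit PSMB8, PSMB9, PSMB10, PSMA6 and PSMD9 most.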

Other observations

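Ubiquilins are shuttle factors that carry ubiquitylated proteins to the proteasome, and 3 of their genes, chosen after their values were seen, are given here. UBQLN2 had 31.0, 34.5 and 33.9 CPM with DMSO and 16.03, 18.01 and 17.6 CPM with abemaciclib (log2 fold change −0.94, edgeR adjusted P = 0.000653). Its groups did not overlap. UBQLN1 and UBQLN4 had log2 fold changes of 0.02 and −0.28 and did not pass (edgeR adjusted P = 0.939 and 0.652). The difference between these genes was not tested.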
